A study of Mus musculus with 12 samples.

Results

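The comparison is between testes given virus for overexpression of lncRNA8276 and testes given virus for its inhibition, called overexpression and knockdown here. Its members were chosen by label: the 3 overexpression and 3 knockdown libraries of the deposited gene table, 6 of the 12 libraries in the series, compared across all genes. RNA sequencing was done on total RNA from testes of F1 mice, whose strain is written IRC mouse in the labels, and all 4 groups of 3 libraries had received a virus. The remaining groups, control_5NC and control_3NC, are taken as control viruses. Control_5NC is set beside overexpression and control_3NC beside knockdown because the design text names them in that order. The sources used here do not name the virus, its promoter, the cells it entered, the age of the mice or the time after injection. Nor do they tell if each library is its own animal, and a p-value here is set by library-to-library spread, part of which may be technical. The RNA named lncRNA8276 was itself not analysed, so the labels of overexpression and knockdown were not checked against their target.

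The testis holds seminiferous tubules, in which spermatogonia divide, pass through meiosis as spermatocytes and mature as round and then elongating spermatids beside the supporting Sertoli cells. Peritubular myoid cells wrap the tubules, and Leydig cells between them make testosterone from cholesterol. Long non-coding RNAs are transcripts without a long reading frame, many of which are found in germ cells, and an overexpression arm set against a knockdown arm asks which genes follow the RNA in opposite directions.

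Total estimated counts ran from 13485472 to 15677887 in the 6 libraries, and each detected 18616 to 18889 of the 20788 genes in the table. All 32 meiotic, 28 round spermatid, 30 Sertoli and 16 myoid markers had counts in each of the 6. Levels are given as CPM, read counts scaled to a common library size. Correlation of log2 CPM was 0.977 to 0.988 within a group and 0.976 to 0.988 between the groups. Knockdown 1 stood apart, at 45.3 on the component that held 33% of the variance, while the other 5 libraries lay between -20.3 and 1. All 25 markers of epididymis and duct had counts in knockdown 1, against 20 and 16 in the other knockdown libraries and 16, 16 and 13 in the overexpression libraries. Their summed level was 1252.9 CPM, without TMM scaling, in knockdown 1, against 305.7 to 372.8 CPM in the overexpression libraries and 303.1 and 309.8 CPM in the other knockdown libraries. Overexpression 2, the library of the lowest total, stood apart on the next component, with 23.1% of the variance. The component that held 17.5% of the variance was the first on which the groups did not overlap: overexpression was at 19.4, 15.9 and 7 and knockdown at -3.3, -14.4 and -24.6.

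**Figure D1:**
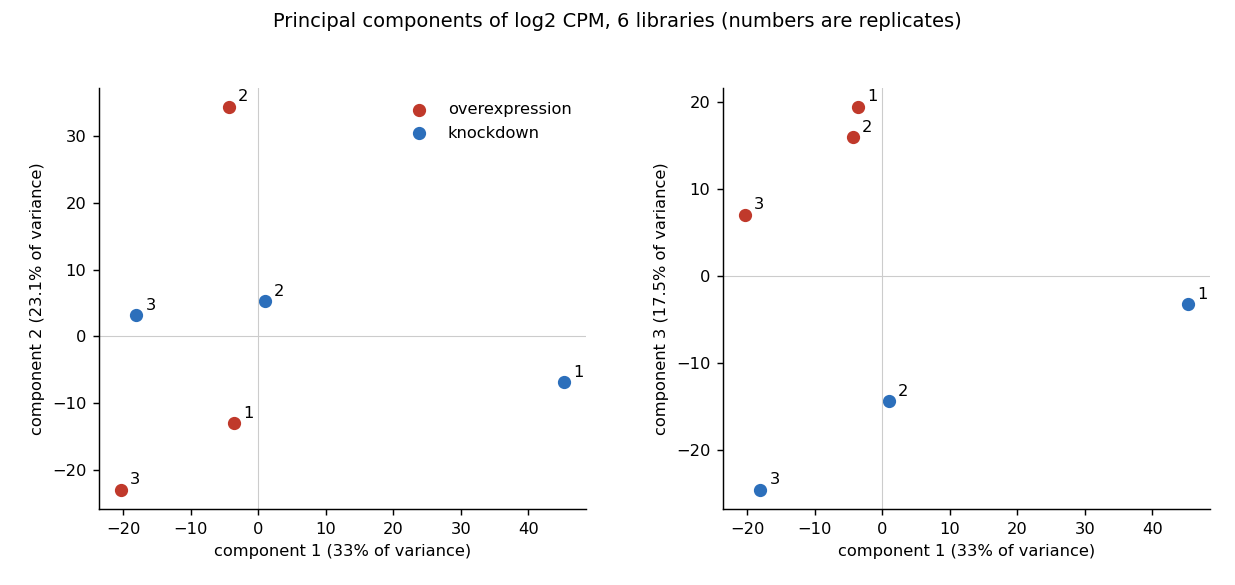
Each point is a library, placed by its scores on principal components of log2 CPM; component 1 is on both horizontal axes, and components 2 and 3 are on the vertical axes. Knockdown 1 is at 45.3 on component 1, overexpression 2 is at 34.4 on component 2, and the groups do not overlap on component 3.

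No gene passed the test between overexpression and knockdown. Of 16395 genes tested with edgeR's quasi-likelihood test, 0 had an adjusted p below 0.05 (0% called), and the smallest adjusted p was 0.19. An unadjusted p below 0.05 was reached by 343 genes (2.09% of those tested), of which 182 were higher with overexpression (1.11%) and 161 lower (0.982%). DESeq2, run on the same counts as an alternative, called 13 genes (0.0641% of the genes it adjusted), 10 higher and 3 lower, with 364 genes at an unadjusted p below 0.05. Limma-voom called 0 genes, as did edgeR on the 6 libraries alone, where 0.077 was the smallest adjusted p.

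Most genes had nearly equal levels in both groups. The median log2 fold change, overexpression minus knockdown, was 0.01, with quartiles at -0.09 and 0.09, and 225 genes lay more than 1 from 0. The 3 overexpression values all exceeded the 3 knockdown values in 911 genes (5.56% of those tested), and all lay below them in 825 (5.03%). Random order of 3 and 3 libraries would give shares near these, so lack of overlap by itself does not mark a difference. The interval of the difference says what the data could have shown. The 95% interval lay inside -1 to 1 on the log2 scale, that is within 2-fold either way, for 13705 genes (83.6%). Among the 9860 genes of at least 10 CPM on average this held for 9609 (97.5%), and the interval reached a median of 0.27 to either side of the fold change.

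**Figure D2:**
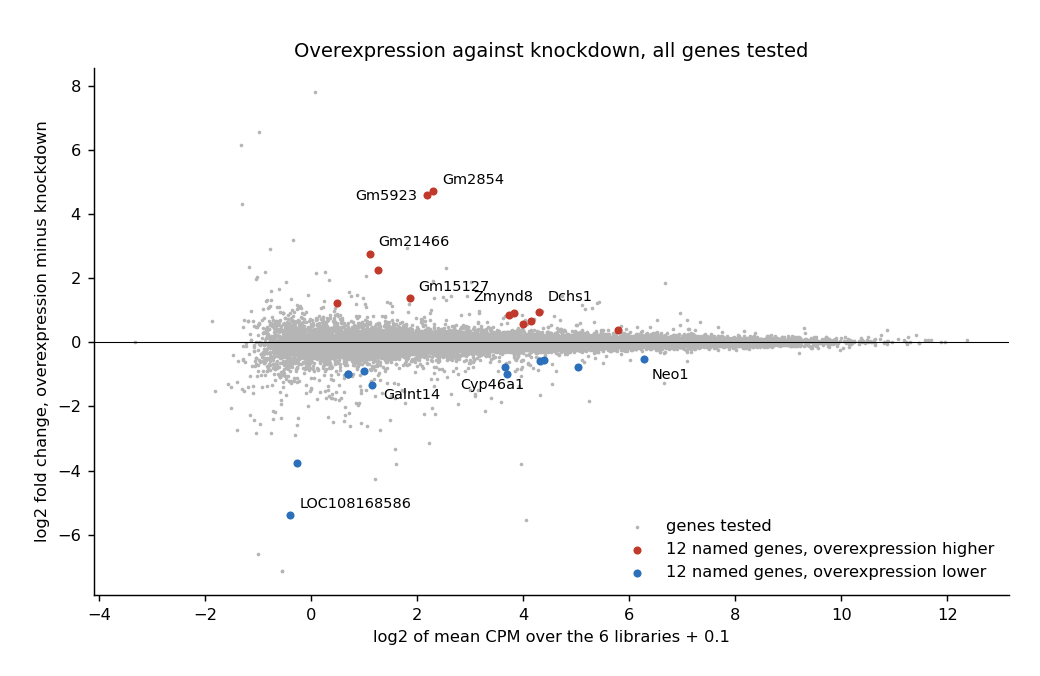
Each point is 1 of the 16395 genes tested, by its log2 mean level over the 6 libraries (horizontal) and its log2 fold change, overexpression minus knockdown (vertical). The 24 coloured genes had the smallest p among genes whose groups did not overlap, 12 in each direction; none passed the adjusted threshold of 0.05.

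Because no gene passed, the genes nearest to the threshold are given as values: in each direction, the 12 of smallest p with at least 1 CPM in the higher group and no overlap between the groups. Of these 24, 9 had fractions in their estimated counts, called shared counts here, 7 lay on the X chromosome and 2 on the Y. Whether the fractions came from similar copies or from overlapping genes was not tested. Among all 16395 genes tested, 2842 had shared counts, 769 lay on the X and 133 on the Y. The sign of each of the 24 was the same under every alternative in which it could be fitted. The genes were picked for groups without overlap, so leaving out a library could hardly change a sign, and this stability is no support. Under at least 1 alternative, 11 passed the threshold, each of them with DESeq2, which called 13 of all genes (0.0641% of those it adjusted). The 24 were picked for a small p on the same counts, so passing is favoured by the pick and is no independent support. Positions are on GRCm38, the assembly behind mm10.

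Gm15127, a predicted gene on the X chromosome (148663598 to 148703849, plus strand), had the smallest p. Its level was 4.66, 5.51 and 5.11 CPM with overexpression and 1.53, 1.69 and 2.59 CPM with knockdown, against 8.11, 8.26 and 8.41 CPM in control_5NC and 5.84, 5.76 and 6.56 CPM in control_3NC. Both modified groups lay below both controls, and knockdown was the lowest. The log2 fold change, overexpression minus knockdown, was 1.39 ± 0.20 (SE; 95% interval 0.96 to 1.82; adjusted p = 0.19). DESeq2 gave it an adjusted p of 4.9e-05. Gm15127 has shared counts and is uncertain for that reason.

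Zmynd8, which encodes a reader of histone marks that recruits chromatin regulators, was at 16.9, 15.1 and 19.2 CPM with overexpression and 9.45, 8.82 and 10 CPM with knockdown (log2 fold change 0.85 ± 0.15, adjusted p = 0.37). Control_5NC was at 26.4, 22.5 and 21.9 CPM, and control_3NC at 10.3, 12.2 and 8.39 CPM. The control groups thus differed in the same direction as the modified groups, and control_5NC against control_3NC passed its own test (log2 1.20 ± 0.15, adjusted p = 0.0085). Otulin, a deubiquitinase of linear ubiquitin chains, had the same order: 18.1, 18.5 and 20.3 CPM with overexpression, 12.3, 12.5 and 13.1 CPM with knockdown, 18.4 to 19.9 CPM in control_5NC and 12 to 14.5 CPM in control_3NC. Its log2 fold change was 0.58 ± 0.11 (adjusted p = 0.37), and the control difference was 0.51 ± 0.11 (adjusted p = 0.076). Set against its own control virus, neither gene had a modified group that passed: for Zmynd8 the adjusted p was 0.15 with overexpression and 0.76 with knockdown, and for Otulin 0.99 and 0.79. Zmynd8 has shared counts and is uncertain for that reason.

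Pop4, a protein subunit of the RNA-processing enzymes RNase P and RNase MRP, had another order. It was at 22.2, 22.9 and 19.5 CPM with overexpression, against 11, 14.7 and 14.9 CPM with knockdown, and both controls lay near the overexpression values, at 18.2 to 21.3 CPM in control_5NC and 20.5 to 22.7 CPM in control_3NC. Knockdown was therefore the low group of the 4 (log2 fold change 0.67 ± 0.13, adjusted p = 0.40). Gm7133, a gene of chromosome 1 whose role the files do not give, was at 18.5, 21.4 and 15.4 CPM with overexpression and 8.17, 12.3 and 8.94 CPM with knockdown (0.91 ± 0.18, adjusted p = 0.46). Its controls were at 11.7 to 14.5 CPM in control_5NC and 15.7 to 20.8 CPM in control_3NC.

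Dchs1, a giant protocadherin that binds Fat4 on the neighbouring cell, was at 26, 20.6 and 30.5 CPM with overexpression and 12.6, 14.7 and 12.8 CPM with knockdown (0.94 ± 0.19, 95% interval 0.52 to 1.36, adjusted p = 0.52). Its partner Fat4 was at 22, 20.2 and 26.9 CPM with overexpression and 25.3, 22 and 24.4 CPM with knockdown, and the groups overlapped. Control_5NC held Dchs1 at 5.4, 5.22 and 5.39 CPM, below every other library, while control_3NC was at 22.4, 19 and 12.6 CPM. Ankrd12, an ankyrin repeat protein, was at 60.2, 65.9 and 60.8 CPM with overexpression and 46.7, 47.5 and 47.4 CPM with knockdown (0.40 ± 0.10, adjusted p = 1). Pik3c2g, a class II phosphoinositide kinase, was at 1.71, 1.62 and 2.19 CPM with overexpression and 0.83, 0.713 and 0.777 CPM with knockdown (1.24 ± 0.31, adjusted p = 1).

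Among the 12 genes that were lower with overexpression, Neo1 had the smallest p. Neo1 encodes neogenin, a receptor for netrins and repulsive guidance molecules. It was at 65.3, 68.3 and 57.9 CPM with overexpression and 90.4, 88.3 and 95.6 CPM with knockdown. The controls were at 58.6 to 66.1 CPM in control_5NC and 55.3 to 58.6 CPM in control_3NC, so overexpression overlapped control_5NC, and knockdown lay above all 9 other libraries. The log2 fold change was -0.52 ± 0.09 (95% interval -0.70 to -0.33; adjusted p = 0.37), and DESeq2 gave an adjusted p of 1.8e-05.

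Cyp46a1, the enzyme that turns cholesterol into 24-hydroxycholesterol, was at 10.6, 8.52 and 8.55 CPM with overexpression and 17.4, 15.2 and 14.6 CPM with knockdown (-0.77 ± 0.14, adjusted p = 0.37). Its controls differed in the same direction, at 4.8 to 6.41 CPM in control_5NC and 9.96 to 10.8 CPM in control_3NC (adjusted p = 0.040). Apol7b, of the apolipoprotein L family, was at 15, 16.3 and 16.2 CPM with overexpression and 23.8, 26.1 and 21.2 CPM with knockdown (-0.58 ± 0.13, adjusted p = 0.91), with controls between 14 and 18.3 CPM. Apol7b has shared counts. Rpap3, a co-chaperone in the assembly of RNA polymerase complexes, was at 17.3, 18.4 and 14.6 CPM with overexpression and 23.4, 26.6 and 24.3 CPM with knockdown (-0.56 ± 0.15, adjusted p = 1).

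Olfr701, an olfactory receptor gene, was at 9.4, 9.03 and 7.29 CPM with overexpression and 19.2, 15.1 and 16.8 CPM with knockdown, against 16 to 21.5 CPM in control_5NC and 6.76 to 17.3 CPM in control_3NC. Galnt14, which starts mucin-type O-glycosylation, was at 1.51, 1.4 and 0.729 CPM with overexpression and 4.09, 2.79 and 2.2 CPM with knockdown, with both controls between 2 and 3.14 CPM. Overexpression had the lowest mean of the 4 groups for both, although 1 control_3NC library was below all 3 overexpression libraries for Olfr701. The others were Gm15246, an X-linked gene (20.8 to 28.4 CPM with overexpression, 31.7 to 49.7 CPM with knockdown), the zinc finger gene Zfp369, Apold1, which is known from endothelium, and Pfkfb1, an enzyme that sets the level of fructose 2,6-bisphosphate. The last 3 were between 0.796 and 1.46 CPM with overexpression and between 1.43 and 3 CPM with knockdown. The last were a pair of Y-linked entries. LOC108168586 had 1, 0 and 0 counts with overexpression and 8, 41 and 11 with knockdown. LOC108168583 had 0, 4 and 0 counts with overexpression and 11, 31 and 21 with knockdown, and both have shared counts.

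**Figure D3:**
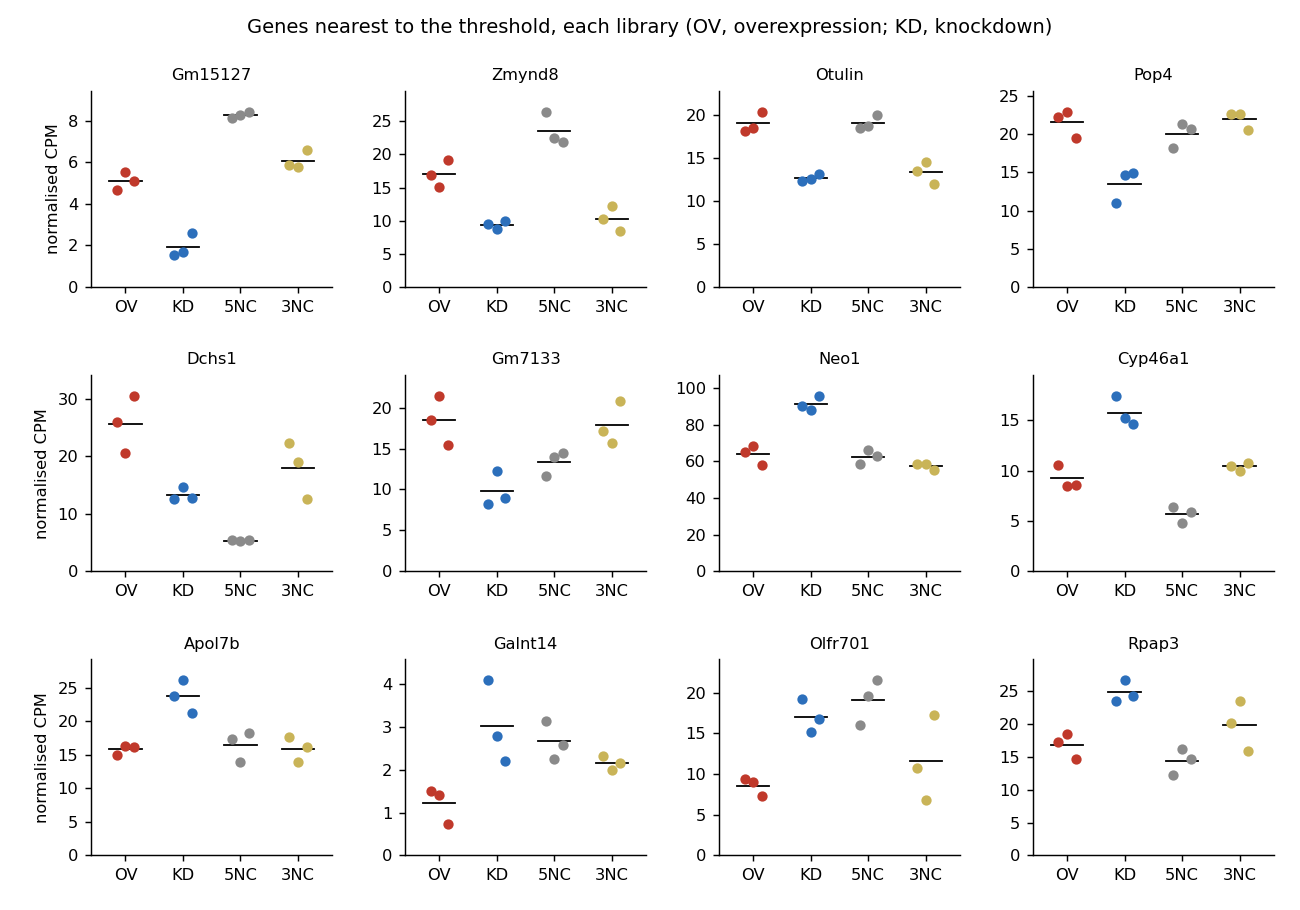
Normalised CPM (vertical) of 12 of the genes nearest to the threshold in each library, by group from left to right: overexpression, knockdown, control_5NC and control_3NC. Points are libraries and bars are group means; Zmynd8 and Otulin have the same order in the controls as in the modified groups, Pop4 is lowest with knockdown, and Neo1 is highest with knockdown.

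The controls allow the direct contrast to be read beside the difference between the control viruses. Among the 12 genes higher with overexpression, control_5NC was above control_3NC in 4, and among the 12 lower ones control_5NC was below control_3NC in 6. Of the 24 genes, 3 passed the test between the controls: Zmynd8, Dchs1 and Cyp46a1. Over all genes tested, that contrast called 40 (0.244%), and 50.9% of genes had the same sign in both contrasts, which share no library. Each modified group was also set against its own control virus, and 6 of the 24 genes passed there. These tests reuse the libraries by which the 24 were picked, so passing is favoured by the pick and is no independent support. The share of all genes that passed is not given here. Knockdown against control_3NC passed for Gm15127 (log2 -1.64, adjusted p = 0.017) and Neo1 (0.67, adjusted p = 0.021). Overexpression against control_5NC passed for Dchs1 (2.27, adjusted p = 0.00056) and Gm21466 (3.03, adjusted p = 0.035), and for Gm5923 (adjusted p = 0.028) and Gm2854 (adjusted p = 0.026), which had few counts in control_5NC.

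Of the 12 genes higher with overexpression, Gm5923, Gm2854, Gm21466 and Spin2e lie on the X chromosome between 31618216 and 33400130. They sit among multicopy genes, and reads of near-identical copies cannot be assigned with certainty. All 4 have shared counts and are uncertain. Spin2e belongs to the spindlin family, whose members bind methylated histone tails. The RefSeq promoter windows (GRCm38.p6, 250 bases before to 50 after each gene start) of Gm2854, Gm21466 and Spin2e hold the same repeat, printed here. The stretches were chosen for the repeat they share, so their likeness is no measure of how alike the whole copies are. Capitals mark a stretch of 29 bases found unchanged in all 3.
Gm2854 (chrX:33398434-33398492, plus strand): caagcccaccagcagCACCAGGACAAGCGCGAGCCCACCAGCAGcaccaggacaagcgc
Gm21466 (chrX:32437129-32437187, plus strand): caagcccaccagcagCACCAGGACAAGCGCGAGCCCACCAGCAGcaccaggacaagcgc
Spin2e (chrX:31619848-31619906, minus strand): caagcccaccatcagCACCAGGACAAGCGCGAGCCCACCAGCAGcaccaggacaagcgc
Searched on both strands, these 29 bases occurred in the windows of 7 of 27025 genes (0.0259%), all on the X chromosome. Gm5923 was not among the 7. Gm5926, Gm2892 and Spin2g were, and their levels are not given here. Spin2d was among the 7 and also has shared counts. It was at 0.788, 1.32 and 0.995 CPM with overexpression and 0.83, 0.778 and 0.972 CPM with knockdown (log2 fold change 0.26 ± 0.37). Its groups overlapped, so the repeat also lay at a gene without a clear difference.

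Gm5923 was at 9.66, 1.98 and 14 CPM with overexpression and 0.192, 0.454 and 0.389 CPM with knockdown, which is 147, 27 and 211 counts against 3, 7 and 6. Gm2854 was at 7.69, 3.74 and 16.4 CPM with overexpression and 0, 0.519 and 0.518 CPM with knockdown. Gm21466 was at 2.76, 2.06 and 5.9 CPM with overexpression and 0.192, 0.972 and 0.389 CPM with knockdown. In each of these genes overexpression 3 was the highest and overexpression 2 the lowest of the 3 overexpression libraries, and knockdown and both controls were below 1 CPM. The log2 fold changes were 4.60 ± 0.72, 4.72 ± 0.84 and 2.77 ± 0.52, each with an adjusted p of 0.37. DESeq2 gave adjusted p-values of 1.8e-05 for Gm5923, 3.6e-05 for Gm2854 and 0.015 for Gm21466. Summed over Gm5923, Gm2854 and Gm21466, the level was 20.1, 7.78 and 36.3 CPM with overexpression and 0.383, 1.94 and 1.3 CPM with knockdown, and 0.647 to 1.63 CPM in the 6 control libraries. Spin2e was at 3.02, 1.4 and 7.03 CPM with overexpression and 1.02, 0.519 and 0.842 CPM with knockdown (log2 fold change 2.26 ± 0.50, adjusted p = 0.91).

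The Btbd35f genes are another X-linked multicopy family and encode proteins with a BTB domain; they were looked at after their values had been seen and are given as a description. Of 29 in the table, 28 were tested, all with shared counts, and 0 passed the test. The log2 fold change was above 0 in 22 and below 0 in 6, with a median of 0.33, beside 0.01 over all genes tested. Overexpression was above knockdown without overlap in 7 of the 28, where 5.56% of all genes tested were. Their summed level was 202.2, 205.7 and 302.4 CPM with overexpression and 147.9, 169.3 and 156.1 CPM with knockdown, against 123.1 to 161.7 CPM in control_5NC and 133.4 to 225.6 CPM in control_3NC. The highest control_3NC library thus lay above the lower pair of overexpression libraries. Btbd35f11 was at 28.8, 29.7 and 58 CPM with overexpression and 18.7, 12.6 and 11.1 CPM with knockdown (1.45 ± 0.40, adjusted p = 1). Btbd35f28 was at 11.9, 14.4 and 19.9 CPM with overexpression and 9.19, 9.98 and 8.03 CPM with knockdown. Btbd35f6 was at 7.36, 4.19 and 12.7 CPM with overexpression and 2.87, 3.37 and 2.72 CPM with knockdown. Btbd35f13, in contrast, was at 3.22, 3.16 and 3.45 CPM with overexpression and 2.68, 4.34 and 2.2 CPM with knockdown, and the groups overlapped. Btbd35f4 was at 0, 5.36 and 3.18 CPM with overexpression and 0, 4.02 and 5.83 CPM with knockdown.

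RefSeq promoter windows were found for 9 Btbd35f genes. Around the gene start, Btbd35f28 and Btbd35f6, whose groups did not overlap, and Btbd35f4 and Btbd35f13, whose groups did, were nearly the same. The 80 bases are printed to show the 1 place in the motif where the pairs differ. They were cut around the motif, so their likeness is no measure of how alike the whole copies are. These 4 genes were picked by their values, and the form of the motif did not separate the genes. Of the 6 with TGACATCA, the groups also overlapped in Btbd35f7, Btbd35f8, Btbd35f21 and Btbd35f22. Capitals mark TGACGTCA, the letters of the cAMP response element, or the form with the substitution G5A, counted from 1 at the motif's first base.
Btbd35f28 (chrX:4196511-4196590, plus strand): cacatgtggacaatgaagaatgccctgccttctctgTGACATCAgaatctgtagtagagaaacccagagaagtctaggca
Btbd35f6 (chrX:33956611-33956690, minus strand): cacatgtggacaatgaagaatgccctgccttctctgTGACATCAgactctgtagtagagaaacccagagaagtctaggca
Btbd35f4 (chrX:4800346-4800425, plus strand): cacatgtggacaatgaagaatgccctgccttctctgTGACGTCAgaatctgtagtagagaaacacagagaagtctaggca
Btbd35f13 (chrX:33657075-33657154, plus strand): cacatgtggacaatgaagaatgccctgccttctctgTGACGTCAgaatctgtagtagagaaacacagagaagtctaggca
Over these 80 bases, Btbd35f28 and Btbd35f6 were identical at 79 positions, Btbd35f28 and Btbd35f4 at 78, and Btbd35f4 and Btbd35f13 at all 80. Searched on both strands, TGACGTCA was in 3 of the 9 windows and in 549 of 27025 windows of all genes (2.03%). TGACATCA was in the other 6 and in 1130 of all (4.18%). A match describes these letters only. On the whole X chromosome, 14 of 769 genes tested were higher and 11 lower at an unadjusted p below 0.05, beside 1.11% higher and 0.982% lower over all genes. Leaving out the Btbd35f family, these numbers were 8 and 11 of 741, and the median log2 fold change was 0.02.

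**Figure D4:**
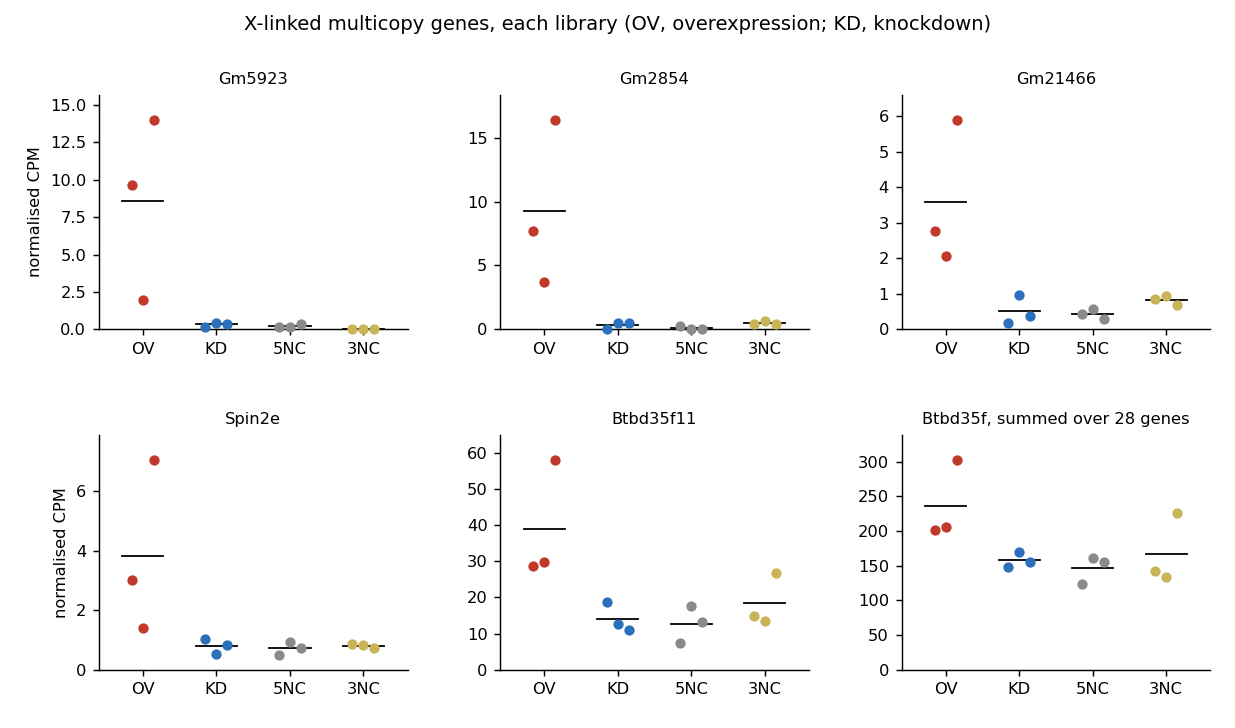
Normalised CPM (vertical) of X-linked multicopy genes in each library, and the sum over 28 Btbd35f genes, by group from left to right: overexpression, knockdown, control_5NC and control_3NC. Gm5923, Gm2854 and Gm21466 are at 1.98 CPM or more in each overexpression library and below 1 CPM in every other library; all the genes drawn have shared counts.

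Germ cell genes had near-equal levels with overexpression and knockdown, and 0 of the germ cell markers passed the test. For spermatogonia, 22 of 26 markers were tested and the median log2 fold change was 0.08, with 13 above 0. Uchl1, a ubiquitin hydrolase of undifferentiated spermatogonia, was at 29.4, 28.2 and 29.9 CPM with overexpression and 20.5, 22.9 and 27 CPM with knockdown (0.31 ± 0.12, adjusted p = 1). Lhx1, a transcription factor of stem spermatogonia, was at 3.02, 2.5 and 3.71 CPM with overexpression and 1.47, 2.66 and 2.66 CPM with knockdown, and the groups overlapped.

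For meiotic prophase the median over 32 genes was 0.05, with 24 above 0, beside 52% of all genes tested. Sycp3, a component of the synaptonemal complex that joins paired chromosomes, was at 187.8, 266.8 and 200.1 CPM with overexpression and 207.9, 210.2 and 211.6 CPM with knockdown. Overexpression 2 alone was high, and the same was seen for Hormad1, a protein of the meiotic chromosome axis, with 119.4, 200.1 and 116.3 CPM under overexpression and 124.6, 125.5 and 129.3 CPM under knockdown. Without overexpression 2 the list's median was -0.05. Spo11, which makes the DNA breaks that start meiotic recombination, was at 30, 34.7 and 34.2 CPM with overexpression and 31.5, 36.9 and 38.6 CPM with knockdown (-0.11 ± 0.10, 95% interval -0.34 to 0.11). Both groups lay below every control library, at 43.3 to 66.4 CPM. Over 27 pachytene and diplotene genes the median was 0.01. Mdc1, which spreads the DNA damage mark over the sex chromosomes, was at 279.6, 289.5 and 270.6 CPM with overexpression and 311.2, 308.7 and 303.6 CPM with knockdown (-0.14 ± 0.07, adjusted p = 1). Cdk1, the kinase of the meiotic divisions, was at 37.5, 34.9 and 35.1 CPM with overexpression and 30.6, 34.2 and 33.8 CPM with knockdown.

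Round spermatid genes had a median of 0.01 over 28 tested. Acrv1, a protein of the acrosome, was at 206.4, 174.5 and 210 CPM with overexpression and 200.8, 193.1 and 192.6 CPM with knockdown. Elongating spermatid and sperm tail genes had a median of 0.08 over 29, with 23 above 0. Hmgb4, a chromatin protein of late spermatids, was at 415.6, 433 and 466.2 CPM with overexpression and 370.8, 376.4 and 383.7 CPM with knockdown, without overlap (0.22 ± 0.09, adjusted p = 1). Prm1, a protamine that packs sperm DNA, was at 3152.2, 2463.3 and 3232.2 CPM with overexpression and 2572.4, 2460.1 and 2496 CPM with knockdown. Tnp1, the transition protein that comes before the protamines, was at 1953.5, 1482.9 and 2116.6 CPM with overexpression and 1581.3, 1546.7 and 1598.5 CPM with knockdown. For both, overexpression 1 and 3 were above all knockdown libraries and overexpression 2 was not.

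Among the somatic cells of the testis, the levels of Leydig and myoid genes went with knockdown 1 in the 6 libraries compared. In these bulk samples, fewer cells of a type and less RNA per cell cannot be told apart. Leydig cell genes had a median log2 fold change of 0.23 over 21 tested, with 15 above 0 and 0 passed. Their summed level was 2549.3, 2842.6 and 2695.4 CPM with overexpression and 1342.2, 2260.7 and 2842.6 CPM with knockdown. Control_3NC 3 was also low, at 1469 CPM, while the other control libraries were at 1943.8 CPM or more. Cyp17a1, an enzyme of androgen synthesis, was at 645.4, 778.7 and 736.8 CPM with overexpression and 249, 533.2 and 813.4 CPM with knockdown. Star, which brings cholesterol into mitochondria, was at 142, 194.9 and 138 CPM with overexpression and 47.1, 138 and 169.2 CPM with knockdown. Knockdown 1 was the low library for both, and without it the list's median was 0.03. Ces1d, a carboxylesterase, was at 24.7, 31.1 and 26 CPM with overexpression and 13.1, 20.7 and 21.7 CPM with knockdown, the groups not overlapping (0.56 ± 0.25, adjusted p = 1).

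Peritubular myoid genes had a median of -0.22 over 16 tested, with 14 below 0. Myh11, the heavy chain of smooth muscle myosin, was at 29.6, 26.7 and 27.5 CPM with overexpression and 65.3, 32.2 and 31 CPM with knockdown (-0.62 ± 0.24, adjusted p = 1). Cnn1, a smooth muscle calponin, was at 3.02, 3.89 and 3.05 CPM with overexpression and 12.9, 2.79 and 3.43 CPM with knockdown. Knockdown 1 was high for both, and without it the median was 0, with 7 of 16 above 0 and 9 below. The 30 Sertoli cell genes, with 14 above 0, had a median of -0.03. Sox9, a transcription factor of Sertoli cells, was at 14.7, 11.7 and 12.2 CPM with overexpression and 15, 15 and 13.9 CPM with knockdown. Endothelial genes had a median of 0.01 over 20.

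Among tissues around the testis, epididymal genes were also high in knockdown 1 of the 6 libraries compared. Their tested members summed to 584.8 CPM in knockdown 1, and to 594.1 and 444.9 CPM in control_5NC 2 and 3. Of 25 epididymis and duct genes, 9 were tested, with a median of -1.08, and 0.15 without knockdown 1. Crisp1, a secreted protein of the epididymis that coats sperm, was at 11.8, 37.4 and 0.995 CPM with overexpression and 165.5, 9.79 and 0.194 CPM with knockdown, an interval of -5.65 to 2.02. Control_5NC held Crisp1 at 9.93, 240 and 98.9 CPM. Adam7, another epididymal protein, was at 1.91, 4.48 and 0 CPM with overexpression and 83.9, 2.59 and 0.13 CPM with knockdown. Gpx5, an epididymal peroxidase left out of the main test by its low counts elsewhere, had 0, 1 and 0 counts with overexpression and 6509, 156 and 5 with knockdown. Gpx5 is 1 of the 3 genes that DESeq2 called lower, and each control library had 2 counts of it or fewer. Akr1b7, an aldo-keto reductase in the list of liver and adrenal genes, was at 0.657, 0.881 and 0.531 CPM with overexpression and 93.2, 2.92 and 0.389 CPM with knockdown.

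Adipose genes had a median of -0.02 over 14, and 0.94 without knockdown 1, with 13 of 14 above 0. Fabp4, a fatty acid carrier of fat cells, was at 5.65, 9.18 and 16 CPM with overexpression and 23.6, 4.02 and 1.62 CPM with knockdown, so each group spanned several-fold. Skeletal muscle genes had a median of 0.07 over 12, and 0.35 without knockdown 1. Ryr1, the calcium release channel of muscle, was at 17.9, 10.9 and 19.3 CPM with overexpression and 6.13, 9.85 and 11.2 CPM with knockdown (0.82 ± 0.27, adjusted p = 1). Xirp1, an actin-binding muscle protein, was at 6.31, 4.04 and 5.5 CPM with overexpression and 3.58, 3.18 and 3.3 CPM with knockdown, without overlap (0.66 ± 0.22, adjusted p = 1). Blood and erythroid genes had a median of 0.03 over 10, and 0.19 without knockdown 1, with 9 of 10 above 0. The part of tissue around the testis in any other result was not tested.

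Macrophage and leukocyte genes had a median of -0.03 over 24 tested, and type I interferon response genes one of -0.07 over 26, with 0 passed in either list. Without knockdown 1 these medians were -0.10 and -0.23, with 22 of the 26 interferon genes below 0. Fcgr3, a receptor for antibodies on macrophages, was at 23.6, 31.8 and 36 CPM with overexpression and 15.3, 15.8 and 20.7 CPM with knockdown, without overlap (0.82 ± 0.38, adjusted p = 1). Fcgr3 has shared counts and is uncertain for that reason, and control_3NC held it at 19.8, 28.6 and 67 CPM. Of the macrophage and leukocyte list, 11 genes were above 0 and 13 below. Cd7, of T and natural killer cells, was at 0.788, 0.955 and 0.265 CPM with overexpression and 0.192, 0.259 and 0.324 CPM with knockdown. Ptprc, the pan-leukocyte protein CD45, was at 2.37, 3.89 and 2.25 CPM with overexpression and 1.98, 3.44 and 2.46 CPM with knockdown. Rsad2, an interferon-induced antiviral enzyme, was at 0.329, 0.294 and 0.332 CPM with overexpression and 0.192, 0.389 and 0.777 CPM with knockdown. The intervals of Ptprc (-2.75 to 2.97) and Rsad2 (-5.29 to 4.30) were wide in a fit that shares its spread with control_3NC 2, in which Ptprc was at 95.5 CPM.

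**Figure D5:**
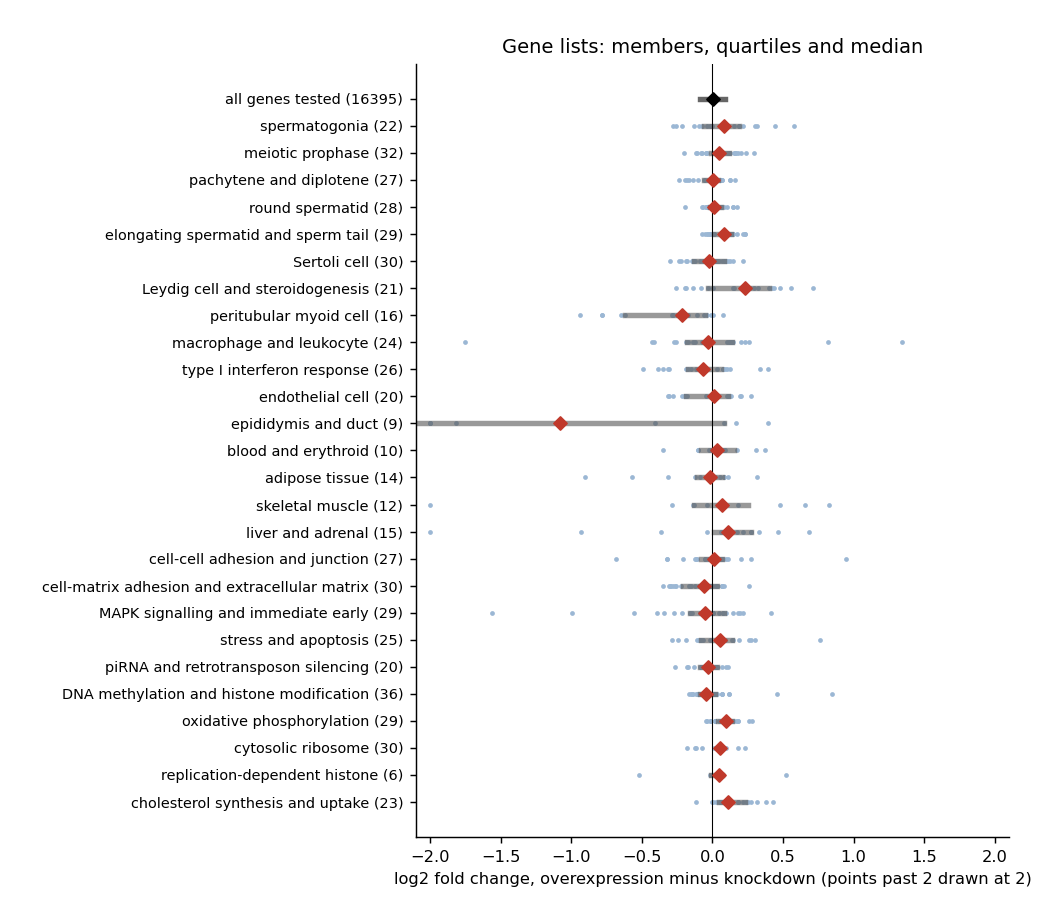
Log2 fold change, overexpression minus knockdown (horizontal), of the tested members of each gene list; pale points are members, grey bars run between the quartiles and diamonds mark the median, with the number tested in parentheses. The medians of Leydig cell (0.23), peritubular myoid (-0.22) and epididymal genes (-1.08) lie farthest from 0, and they were 0.03, 0 and 0.15 without knockdown 1.

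Pathway genes were also near 0. Oxidative phosphorylation genes had a median of 0.10 over 29, with 25 above 0 (52% of all genes tested were above 0) and 10 at which overexpression was above knockdown without overlap (5.56% of all genes tested). No member passed. Sdhb, the iron-sulphur subunit of complex II, was at 72.1, 70.7 and 74.5 CPM with overexpression and 66.1, 67.6 and 67.4 CPM with knockdown (0.11 ± 0.07, adjusted p = 1). Cox7a2, a subunit of cytochrome oxidase, was at 205.9, 192.3 and 203 CPM with overexpression and 183.8, 175.4 and 187.6 CPM with knockdown. The summed level of the list was 3996.2, 3823.4 and 4006.9 CPM with overexpression and 3755.2, 3719.9 and 3744.4 CPM with knockdown, and 3935.4 to 4011.8 CPM in control_5NC and 3608.2 to 3818.4 CPM in control_3NC. The controls were therefore ordered as the modified groups were. The median without knockdown 1 was 0.09, with 26 of 29 above 0. Cytosolic ribosome genes had a median of 0.06 over 30, with 26 above 0 and 0 passed.

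Cholesterol synthesis and uptake genes had a median of 0.11 over 23, with 21 above 0, and 0.05 with 14 above 0 without knockdown 1. Ebp, an isomerase of late sterol synthesis, was at 16.3, 19.2 and 18.4 CPM with overexpression and 9.51, 14.8 and 15.7 CPM with knockdown, without overlap (0.43 ± 0.20, adjusted p = 1). Genes of DNA methylation and histone modification had a median of -0.04 over 36, with 24 below 0. Overexpression was below knockdown without overlap in 6 and above it in 2, beside 5.03% and 5.56% of all genes tested. Ep300 was at 79.6, 73.5 and 74.3 CPM with overexpression and 81.5, 81.6 and 80 CPM with knockdown (-0.10 ± 0.08). The highest fold change of the list was that of Dnmt3l. Dnmt3l, the cofactor of the de novo DNA methyltransferases, was at 9.66, 9.33 and 7.89 CPM with overexpression and 2.17, 5.06 and 7.71 CPM with knockdown (0.85 ± 0.33, adjusted p = 1). Dnmt1 was at 57.3, 49.1 and 53.5 CPM with overexpression and 54.3, 57.3 and 58.2 CPM with knockdown.

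Genes that silence retrotransposons through piRNAs had a median of -0.03 over 20. Tex19.1, which restrains retrotransposons in germ cells, was at 6.44, 6.9 and 6.3 CPM with overexpression and 8.05, 7.58 and 7.97 CPM with knockdown, without overlap (-0.26 ± 0.14, adjusted p = 1). Cell-cell adhesion and junction genes, among them Dchs1, had a median of 0.01 over 27, with 14 above 0. Tjp1, a scaffold of tight junctions, was at 123, 126.9 and 118 CPM with overexpression and 131, 129.6 and 136.2 CPM with knockdown (-0.11 ± 0.08). Matrix and cell-matrix adhesion genes had a median of -0.06 over 30, MAPK and immediate early genes -0.05 over 29, stress and apoptosis genes 0.06 over 25, and replication-dependent histone genes 0.04 over 6. None of these lists had a member that passed.

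Alb and Cyp21a1 had been singled out in earlier results of these data as high in both modified groups, and here their modified groups are set against each other. Alb, the serum albumin of liver, was at 2.89, 3.45 and 6.1 CPM with overexpression and 4.21, 2.85 and 3.63 CPM with knockdown, while the 6 control libraries were at or below 0.144 CPM. Overexpression and knockdown overlapped, and the difference was 0.22 ± 0.35 (95% interval -0.54 to 0.97). Cyp21a1, the 21-hydroxylase of corticosteroid synthesis, was at 16.3, 11.9 and 12.9 CPM with overexpression and 12.9, 8.69 and 12.5 CPM with knockdown, against 4.6 to 5.84 CPM in the controls. The difference was 0.27 ± 0.17 (95% interval -0.10 to 0.64). Neither interval excludes 0, and that of Alb reaches nearly 2-fold, so equal levels were not shown.

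The difference between the effects is overexpression minus control_5NC less knockdown minus control_3NC. It subtracts control_5NC minus control_3NC from the direct contrast, so a gene can pass through its controls alone. This difference passed for 3 of the 16395 genes (0.0183%), with 1104 at an unadjusted p below 0.05. They were Dchs1 (log2 2.69 ± 0.28, adjusted p = 0.0026), A530064D06Rik (6.15 ± 0.52, adjusted p = 4e-04) and Gm40011 (5.93 ± 0.37, adjusted p = 2.2e-05). A530064D06Rik was at 5.52, 4.77 and 7.43 CPM with overexpression and 4.98, 5.32 and 6.8 CPM with knockdown, and Gm40011 at 11.8, 10.7 and 8.75 CPM with overexpression and 7.79, 9.98 and 9.59 CPM with knockdown. Control_5NC was at or below 0.126 CPM for A530064D06Rik and 0.282 CPM for Gm40011, and control_3NC was at 4.46 to 5.9 CPM and 9.58 to 11.2 CPM. In both genes the modified groups overlapped and control_5NC alone was low. For Dchs1, the direct contrast was 0.94 and control_5NC minus control_3NC was -1.75. Of the 24 genes nearest to the threshold in the direct contrast, Dchs1 was the 1 that passed here; the adjusted p was 0.19 for Neo1, 0.51 for Gm15127, 0.79 for Zmynd8 and 0.95 for Otulin.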

How the data were processed

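RNA sequencing of testis gave 12 libraries in 4 groups of 3. Per the file headers, the authors deposited estimated counts; 88.2% of them are whole numbers, and genes with fractions are called shared. Reads were placed on mm10, a build named in the submitters' processing notes. Aligner, counter, annotation and strand setting: not given in the sources used here. Without the strand, a gene and one antisense to or overlapping it cannot be told apart. The table also has 18 per-sample columns of 9 other samples, not used here. Positions are from GENCODE M21, or RefSeq on GRCm38.p6.

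Rounded estimated counts went into edgeR 4.0.16 (R 4.3.3): filterByExpr (minimum count 10; 4393 genes left out, with 0.0707% of the counts), TMM scaling, and a single quasi-likelihood fit of the 4 group means to all 12 libraries, which shares its estimate of spread between groups (common dispersion 0.0388). P-values were adjusted by Benjamini-Hochberg over all genes tested, and 0.05 was the threshold. The ± after a log2 fold change is the fit's standard error. CPM are TMM-normalised. Library pairs differed by more than counting error (chi-square over its degrees of freedom 3.04 to 16.9), so none were merged. The scripts were tested on simulated data.

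Genes are named by a rule: those passing; with fewer than 12 in a direction, the next by p up to 12, with at least 1 CPM in the higher group and no overlap between groups; in each of 26 lists, members passing and up to 3 of smallest p; and 9 genes earlier results singled out. Well-known markers of a list and the X-linked families were added after their values were seen. Members and lists were chosen with earlier results of these data known. Alternatives were DESeq2 1.42.0, limma-voom (limma 3.58.1), the 6 libraries alone, other scalings and filters, a replicate block, a term for low totals, and leaving out each library.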

Additional observations from a re-analysis of the deposited data

Results flagged for a closer look

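For 3 genes the effect of overexpression against control_5NC differed from that of knockdown against control_3NC, by edgeR's test of the difference itself. The difference was 6.15 on the log2 scale for A530064D06Rik (adjusted p = 4e-04), 2.69 for Dchs1 (adjusted p = 0.0026) and 5.93 for Gm40011 (adjusted p = 2.2e-05). In each, the 3 control_5NC libraries were the lowest of the 12, and for A530064D06Rik and Gm40011 overexpression and knockdown overlapped when set against each other.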

How the results depend on the processing

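Between overexpression and knockdown, DESeq2 called 13 genes where edgeR called 0; limma-voom, other scalings, other filters, a term for low totals and the 6 libraries alone called 0, as did a replicate block. Leaving out 1 library gave 0 to 2 calls: Gm14296 and Gm5923 without overexpression 2, and Gm15127 without knockdown 3. Control_3NC 2 had the lowest median correlation with the other libraries (0.948). Without it 0 genes were called, and the smallest adjusted p of edgeR's test was 0.073, against 0.19 with all 12 libraries. The difference between the effects gave 50 genes with DESeq2, 6 with the replicate block, and 3 to 12 with 1 library left out (5 without overexpression 2, knockdown 3 or control_3NC 2, 6 without knockdown 1, 12 without control_3NC 3). The cause was not tested. Leaving out a control library other than control_3NC 2 was added after seeing the data. Same-numbered libraries deviated together with r of 0.14, 0.03 and 0.18, each the highest for its number. Deviations were taken from each group's own mean, so these low values depend on each other and do not show pairing. The labels state none, and pairing was not tested.

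With a term for the 3 libraries of lowest totals, list medians were 0.0421 for spermatogonia, -0.0476 for meiotic prophase and -0.0202 for pachytene and diplotene. With 1 library left out they ran from 0.0258 to 0.0961 for spermatogonia, -0.0534 to 0.0975 for meiotic prophase, -0.0296 to 0.0154 for pachytene and diplotene, -0.0803 to -0.0244 for DNA methylation and histone modification, -0.0895 to 0.0166 for piRNA genes, 0.00321 to 0.0559 for stress and apoptosis, -0.324 to 0.94 for adipose tissue and -0.0225 to 0.354 for skeletal muscle. Of the list medians under alternatives, 533 moved by less than the spread between replicates and 13 by more. The 95% interval reached a median of 0.36 to either side over all genes, against 0.27 for genes of at least 10 CPM.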

Other observations

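H2-D1, a class I histocompatibility gene that varies between mouse strains, was looked at after its values were seen. It was at 60.3, 43.1 and 72.7 CPM with overexpression and 149.9, 154.5 and 121.3 CPM with knockdown, without overlap. Control_5NC was at 59.4, 56 and 51.1 CPM, and control_3NC at 133.1, 566.4 and 38 CPM, so the control_3NC libraries spanned both levels. The log2 fold change was -1.27 ± 0.75 (adjusted p = 1), in a fit that shares its spread with control_3NC 2, the library at 566.4 CPM. H2-D1 has shared counts.

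Gm21405, a Y-linked gene with shared counts that DESeq2 called (adjusted p = 0.03), was also chosen after its values were seen. It had 34, 26 and 23 counts with overexpression and 0 in each knockdown library, with 0 in each control_5NC library and 24, 0 and 13 counts in control_3NC.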
